A study of Brassica napus with 18 samples.

Results

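Every gene whose Swiss-Prot description names the Rubisco small subunit or Rubisco activase was taken, which gave 32 of the 108207 genes in the table. Of these, 16 were small subunit genes and 16 carried an activase name. The groups were wild type (WT) and a bnagrp3 mutant, given as line bngrp3#2 in the study's design, each grown for 3 weeks in Hoagland's nutrient solution and then kept in mock conditions or given 200 mM NaCl for 4 h or 8 h. Each of the 6 groups had 3 libraries of poly(A) RNA from aerial parts, labelled leaf. The mutation is said to be in BnaGRP3, a glycine-rich protein gene, and the study asked which pathways it affects under salt. The labels name 1 mutant line, do not say which gene copies are altered, and do not say that replicates came from separate plants, so the p-values below speak of the scatter among these libraries alone, and part of it may be technical. Levels are in TPM, a relative abundance corrected for gene length and for the library total, which keeps no read depth.

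Rubisco, the enzyme that fixes CO2 in the chloroplast stroma, is built from large subunits encoded in the chloroplast genome and small subunits encoded by the nuclear RBCS gene family. The small subunits are made in the cytosol, imported into the chloroplast and assembled with the large subunits with the help of chaperonins and assembly factors. Rubisco activase, encoded by the nuclear RCA genes, is an ATP-driven ring protein that pulls inhibitory sugar phosphates off the active site and so keeps the enzyme working. In leaves both families are expressed mainly in the photosynthetic mesophyll and respond to light, and their transcripts can follow the time of day. The allotetraploid oilseed rape Brassica napus carries an A and a C subgenome, and so holds many copies of both families.

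Of the 32 genes, 26 reached 1 TPM in at least 3 of the 18 libraries and were tested among 57923 genes, 14 of them small subunit genes and 12 activase genes. The 6 others were BnaA03G0506200ZS, BnaC01G0427800ZS and BnaC04G0381100ZS, listed at 0 in all 18 libraries, BnaA06G0312100ZS and BnaC02G0209800ZS, each above 0 in 1 library, and Bnascaffold0750G0000100ZS. Because the filter could let a gene in through the group where it was high, counts over the tested genes describe those genes only. Where copies are nearly identical, how reads were divided among them is not given in the sources used here, so levels of single copies are less certain than their sums. Unplaced gene models of the submitters are called here by the word model and the number in their identifier; they and scaffold genes may hold reads of a placed copy.

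Some facts of the whole series bear on these genes. Of 13 genes named GRP3 by Swiss-Prot, 2 had all 9 WT libraries above all 9 bnagrp3 libraries; 1 of them, model 65893, stood between 376 and 2799 TPM in WT and between 0 and 4.51 TPM in bnagrp3. The WT libraries differed among themselves in transcripts typical of the mutant: over 326 genes that reached 5 TPM in each of the 9 mutant libraries but stayed within 0.2 TPM in 2 or more WT libraries, the median level relative to bnagrp3 was 0.231, 0.254 and 0.214 in the WT mock libraries 1 to 3. At 4 h it was 0, 0.67 and 0.233, and at 8 h 0.168, 0 and 0.369. None of the 32 genes was in that set, which was chosen from the data. Of 38 root marker genes, 32 were at 0 in every library and the summed level lay between 1.94 and 9.16 TPM, whereas 62 light-harvesting LHCB genes, 3 of them at 0, summed to between 42100 and 92700 TPM.

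Small subunit transcripts made up a large part of the mock transcriptome and were far scarcer in the NaCl libraries of both genotypes. Summed over the 16 genes, they stood at 72121 ± 7540 TPM (SD, n = 3) in WT mock, 35132 ± 1670 TPM at 4 h and 23042 ± 1990 TPM at 8 h. The same sum in bnagrp3 was 73551 ± 3390 TPM in mock, 33318 ± 236 TPM at 4 h and 26178 ± 2010 TPM at 8 h. As a share of all TPM, that is 7.21%, 3.51% and 2.30% in WT and 7.36%, 3.33% and 2.62% in bnagrp3. The mock mean was 2.05 times the 4 h mean and 3.13 times the 8 h mean in WT, against 2.21 and 2.81 times in bnagrp3. No mock library overlapped a NaCl library in this sum, and the libraries of both genotypes overlapped in mock.

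Activase transcripts followed a like course from a lower level. The sum over the 14 activase genes with a plant match was 9187 ± 570 TPM in WT mock, 4110.1 ± 142 TPM at 4 h and 2390.1 ± 286 TPM at 8 h, so the mock mean was 2.24 and 3.84 times the NaCl means. In bnagrp3 it was 6917 ± 584, 3282 ± 92.0 and 2119 ± 135 TPM, with ratios of 2.11 and 3.26. The 3 bnagrp3 mock libraries, at 6548 to 7590 TPM, lay below the 3 WT mock libraries, at 8533 to 9577 TPM. At 4 h the bnagrp3 libraries, at 3186 to 3370 TPM, also lay below the WT libraries, at 4022 to 4273 TPM. The groups of both genotypes at 8 h overlapped. For each 100 TPM of small subunit there were 12.8 ± 0.695 TPM of activase in WT mock, 11.7 ± 0.729 at 4 h and 10.4 ± 0.392 at 8 h. The bnagrp3 values were 9.43 ± 1.04, 9.85 ± 0.311 and 8.10 ± 0.110. These sums were not tested. In bulk tissue, fewer mesophyll cells and less of these transcripts per cell cannot be told apart.

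**Figure D1:**
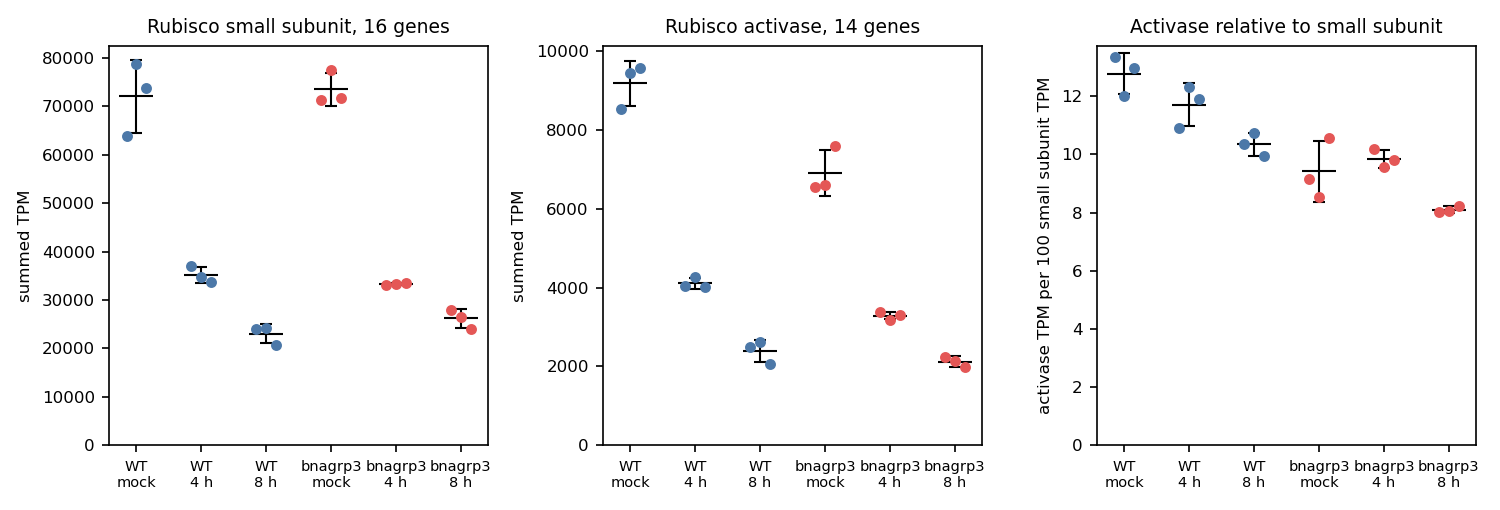
Summed TPM of the Rubisco small subunit genes and of the activase genes in each of the 18 libraries, by genotype and treatment, with the group mean ± SD (n = 3). All mock libraries lie above all NaCl libraries in both sums. In the activase sum the bnagrp3 mock libraries, at 6548 to 7590 TPM, lie below the WT mock libraries, and the bnagrp3 4 h libraries below the WT 4 h libraries.

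Nearly all small subunit RNA came from a few copies. The copy with the highest level, BnaA04G0100900ZS (matched to RBCS1), measured 22040.1, 26674 and 23454 TPM in the WT mock libraries, 13494, 12664 and 11936 TPM at 4 h and 9154, 8977 and 7464 TPM at 8 h. It was the gene with the highest TPM of the whole table in WT mock, with 2.41% of all TPM. All NaCl values lay under all mock values, and all 8 h values under all 4 h values. The log2 fold change of TPM + 1 was -0.92 (SE 0.096, adjusted p = 2.06e-06) at 4 h and -1.50 (SE 0.096, adjusted p = 1.21e-08) at 8 h, by limma with adjustment over all tested genes. In bnagrp3 the copy measured 20014, 21495 and 18422 TPM in mock, 11036, 10791 and 11027 TPM at 4 h and 8648, 8235 and 7530.1 TPM at 8 h. The order of the groups was the same, with changes of -0.86 (SE 0.096, adjusted p = 2.83e-06) and -1.30 (SE 0.096, adjusted p = 5.23e-08). With only the groups compared in the fit, these bnagrp3 calls were lost (adjusted p = 0.233 at 4 h and 0.113 at 8 h). Without the filter on low values the 4 h calls were lost in WT (adjusted p = 0.0744) and in bnagrp3 (0.0862).

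Of the 14 small subunit genes tested, 12 fell at 4 h and 12 at 8 h in WT, where 20.5% and 17.3% of all genes tested fell. In bnagrp3 10 fell at 4 h and 11 at 8 h, where 23.5% and 18.4% of all genes did. None of the 14 rose in any of these 4 comparisons. Over all 26 tested genes, the median log2 fold change was -1.08 at 4 h and -1.73 at 8 h in WT, and -0.94 and -1.39 in bnagrp3, beside 0.055, 0.136, 0.0558 and 0.143 over all genes. Rescaling the libraries by median of ratios lowered the median of all genes by 0.123 in WT and 0.133 in bnagrp3 at 8 h, and took the share of higher among called genes from 62.6% to 50.4% and from 62.9% to 50.2%. It turned no direction of a called Rubisco gene against mock.

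Next in level came 4 copies on chromosomes A04 and C04 whose falls differed in depth. BnaC04G0381200ZS, matched to the small subunit F1, went from 12195, 14832 and 13832 TPM in WT mock to 6257, 6809 and 6069 TPM at 4 h and 3453, 2934 and 2777 TPM at 8 h. Its groups did not overlap, and the changes were -1.09 (SE 0.095, adjusted p = 3.2e-07) and -2.16 (SE 0.095, adjusted p = 2.29e-10). BnaA04G0101200ZS measured 9618, 11667 and 11450.4 TPM in mock, 6489, 5765 and 5967 TPM at 4 h and 4625, 5039.9 and 4258 TPM at 8 h. This shallower course gave -0.84 (SE 0.085, adjusted p = 1.51e-06) and -1.23 (SE 0.085, adjusted p = 2.68e-08). BnaC04G0380700ZS ran close to it, with 8625, 10524 and 10027 TPM, then 6321, 5002 and 5579 TPM and then 4212, 4828 and 3859 TPM. Its changes were -0.79 (SE 0.10, adjusted p = 1.86e-05) and -1.18 (SE 0.10, adjusted p = 3.05e-07). BnaA04G0100700ZS, another match to RBCS1, measured 5488, 7408 and 7079.9 TPM, 2185, 2585 and 2116 TPM and 1483, 1221 and 1495 TPM, with changes of -1.53 (SE 0.13, adjusted p = 2.76e-07) and -2.24 (SE 0.13, adjusted p = 4.69e-09). Both RBCS1 copies of chromosome A04 had changes at 8 h of -1.50 and -2.24; the difference between copies was not tested.

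The same 4 copies fell in bnagrp3 at both times. BnaC04G0381200ZS measured 12035, 13053 and 11629.8 TPM in mock, 6630.4, 6613 and 6904 TPM at 4 h and 4459, 4073 and 3806 TPM at 8 h, which gave -0.86 (SE 0.095, adjusted p = 2.63e-06) and -1.57 (SE 0.095, adjusted p = 6.12e-09). At 8 h its 3 libraries lay above the 3 WT libraries. With only the groups compared its 4 h call was lost (adjusted p = 0.101). BnaA04G0101200ZS measured 12752, 13759 and 13717 TPM, 5797, 5974 and 5988 TPM and 5377, 5381 and 4899 TPM, with changes of -1.18 (SE 0.085, adjusted p = 3.53e-08) and -1.36 (SE 0.085, adjusted p = 8.94e-09). BnaC04G0380700ZS measured 10765, 11720.5 and 11390.05 TPM, 4699, 5053 and 4875 TPM and 4667, 4481 and 4130.03 TPM, with changes of -1.21 (SE 0.10, adjusted p = 1.86e-07) and -1.35 (SE 0.10, adjusted p = 6.8e-08). For both copies the 4 h and 8 h levels lay close together and well under mock. BnaA04G0100700ZS measured 9464, 10435 and 8918 TPM, 3479.5, 3391 and 3268 TPM and 3341, 2992 and 2499 TPM, with changes of -1.50 (SE 0.13, adjusted p = 2.57e-07) and -1.71 (SE 0.13, adjusted p = 7.7e-08).

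Further copies matched to F1 and RBCS-3B, at lower levels, fell as well. BnaC04G0420700ZS stood at 2729.6, 3286 and 3259.8 TPM in WT mock, 1369.7, 1024 and 1196 TPM at 4 h and 636, 731 and 487 TPM at 8 h, a change of -2.34 (SE 0.14, adjusted p = 4.73e-09) at 8 h. BnaA04G0131800ZS stood at 1602, 1932 and 2122 TPM, 661, 624 and 664 TPM and 302, 323 and 255 TPM, with -2.68 (SE 0.12, adjusted p = 3.6e-10) at 8 h. Both fell further between 4 h and 8 h, though for BnaC04G0420700ZS that call was lost with only the groups compared (adjusted p = 0.0661). BnaC06G0156800ZS, also matched to F1, went from 1178, 1776 and 1815 TPM to 168, 144 and 153 TPM at 4 h and 175, 172 and 113 TPM at 8 h. By 4 h it had already fallen, with -3.32 (SE 0.18, adjusted p = 2.5e-09) at 4 h and -3.37 (SE 0.18, adjusted p = 2.2e-09) at 8 h. The same held for BnaA07G0167600ZS (matched to RBCS-3B), singled out after its values were seen, at 392, 566 and 701 TPM, 26.8, 52.4 and 44.6 TPM and 42.6, 57.2 and 38.1 TPM, with -3.72 (SE 0.26, adjusted p = 2.84e-08) and -3.54 (SE 0.26, adjusted p = 4.9e-08). For both genes the 8 h libraries overlapped the 4 h libraries and every NaCl library lay far under mock.

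In bnagrp3, BnaC04G0420700ZS measured 2391, 2592 and 2715 TPM in mock, 773, 806 and 803 TPM at 4 h and 666, 628 and 556 TPM at 8 h. BnaA04G0131800ZS measured 2185, 2426 and 2604 TPM, 478, 475 and 493 TPM and 467, 431 and 345 TPM. Their changes at 8 h were -2.06 (SE 0.14, adjusted p = 1.73e-08) and -2.54 (SE 0.12, adjusted p = 5.96e-10). BnaC06G0156800ZS measured 1312, 1409 and 1636 TPM, 131, 133 and 142 TPM and 244, 222 and 178 TPM, and BnaA07G0167600ZS 481, 547 and 697 TPM, 55.1, 56.6 and 45.0 TPM and 103, 93.8 and 69.0 TPM. All 3 libraries of both genes were higher at 8 h than at 4 h, while still far under mock. Against mock, BnaC06G0156800ZS changed by -3.41 (SE 0.18, adjusted p = 1.67e-09) at 4 h and -2.76 (SE 0.18, adjusted p = 1.7e-08) at 8 h, and BnaA07G0167600ZS by -3.43 (SE 0.26, adjusted p = 5.69e-08) and -2.69 (SE 0.26, adjusted p = 8.07e-07).

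**Figure D2:**
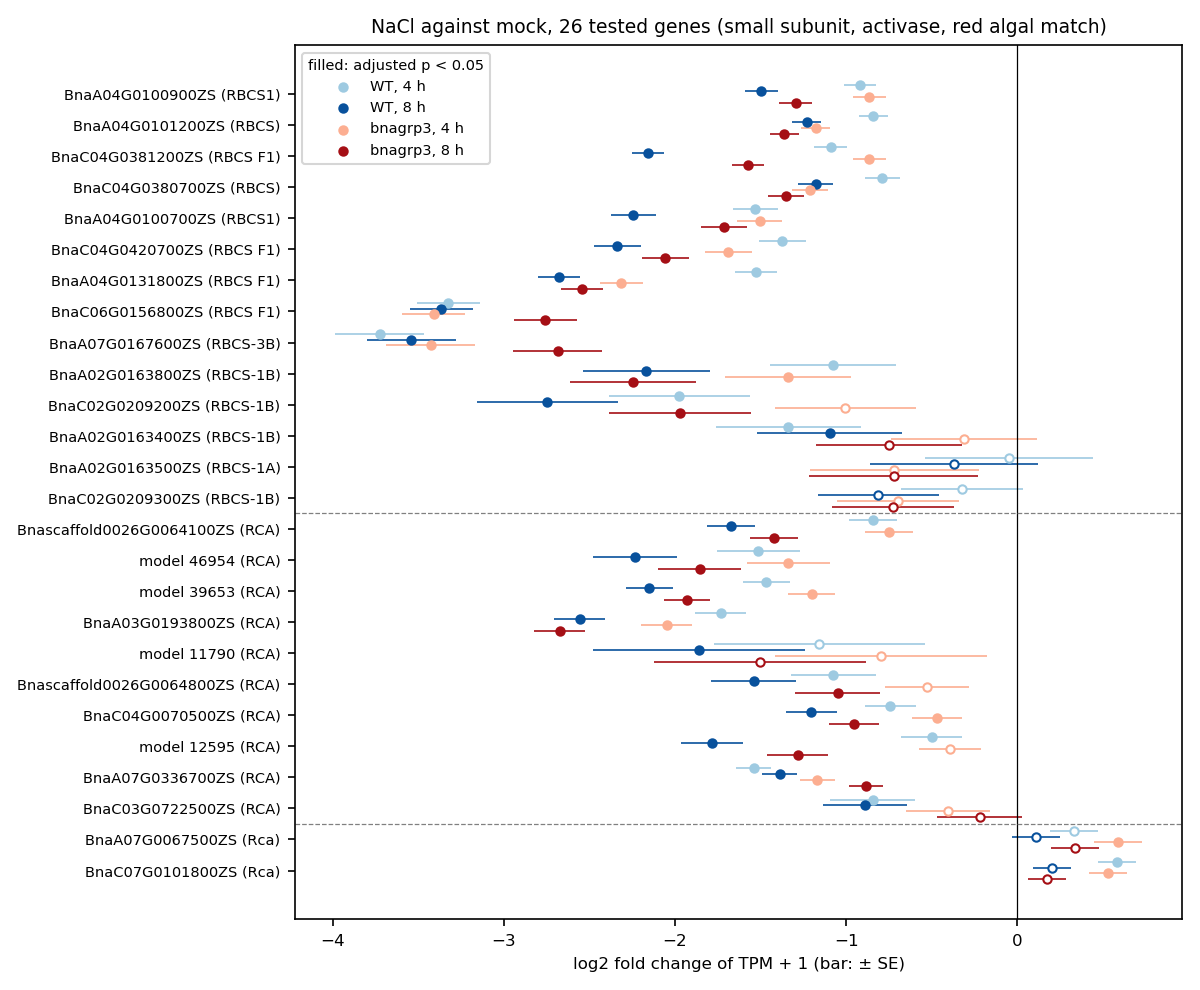
Log2 fold change of TPM + 1 for NaCl against mock, for the 26 tested genes in each genotype and at each time, with bars of ± SE and filled points for an adjusted p under 0.05 (limma). The small subunit and activase points lie on the lower side, BnaC06G0156800ZS and BnaA07G0167600ZS lie at or beyond -2.69, and the pair with a red algal match lies above 0.

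The copies matched to RBCS-1A and RBCS-1B, all on A02 or C02, contributed almost nothing. BnaA02G0163800ZS stood at 11.0 to 11.6 TPM in WT mock and 0.820 to 2.46 TPM at 8 h, and its change of -2.17 (SE 0.37, adjusted p = 0.000215) passed the test. BnaC02G0209200ZS also fell in WT at 4 h and 8 h, by 1.98 and 2.74 on the log2 scale, from 8.56 to 17.7 TPM in mock. In bnagrp3, BnaA02G0163800ZS fell at 4 h (-1.34, SE 0.37, adjusted p = 0.0068) and 8 h (-2.24, SE 0.37, adjusted p = 0.000141). BnaC02G0209200ZS fell in bnagrp3 at 8 h (-1.97, SE 0.41, adjusted p = 0.00104). Its 4 h change there, -1.01 (SE 0.41, adjusted p = 0.0533), passed only with a filter of 5 TPM (0.0461) and under rescaling (0.0421). BnaA02G0163400ZS lay at 3.44 to 5.55 TPM in WT mock and at 0 to 1.59 TPM in bnagrp3 mock. Its calls in WT rested on low levels: the 4 h call was lost without WT mock replicate 3 or WT 4 h replicate 2 (adjusted p of 0.0646 to 0.0922), and the 8 h call without any 1 of 10 libraries (0.0538 to 0.197). Its 4 h call was also lost with a pseudocount of 0.1 TPM (0.14), and its 8 h call with that pseudocount (0.278), without the filter (0.0666) and with only the groups compared (0.0525). The 4 h call of BnaA02G0163800ZS was lost without any 1 of the WT mock libraries or WT 4 h replicate 2 (0.0532 to 0.136), and with only the groups compared (0.0995). BnaA02G0163500ZS (RBCS-1A), with 0.140 to 1.75 TPM in WT mock, and BnaC02G0209300ZS did not pass against mock. In the fit of only the groups compared, BnaC02G0209300ZS passed as lower in WT at 8 h (adjusted p = 0.0434) and in bnagrp3 at 4 h (0.0434), and with a pseudocount of 0.1 TPM in WT at 8 h (0.0444).

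In the NaCl libraries the 5 small subunit copies with the highest level held a larger share of the pool than in mock. The share of the 5 genes with the highest level went from 90.1% ± 0.76 in WT mock to 94.2% ± 0.44 at 4 h and 95.2% ± 0.495 at 8 h, and in bnagrp3 from 90.4% ± 0.996 to 95.6% ± 0.0534 and 94.9% ± 0.272 (SD, n = 3). BnaA04G0100900ZS alone made up 33.4% of the pool in WT mock, 36.1% at 4 h and 37.0% at 8 h. In bnagrp3 it made up 27.1%, 32.9% and 31.1%. BnaA04G0100700ZS held 9.20%, 6.54% and 6.13% in WT and a larger share, 13.0%, 10.1% and 11.2%, in bnagrp3. The steepest faller of the F1 type, BnaC06G0156800ZS, went from 2.19% to 0.442% and 0.659% of the WT pool. Genes of the A subgenome carried 61.1 ± 0.312% of the pool in WT mock, 61.9 ± 0.562% at 4 h and 64.8 ± 0.401% at 8 h, with bnagrp3 at 62.5 ± 0.589%, 62.4 ± 0.533% and 64.2 ± 0.344%. Shares were not tested, and those of single copies depend on how shared reads were divided.

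**Figure D3:**
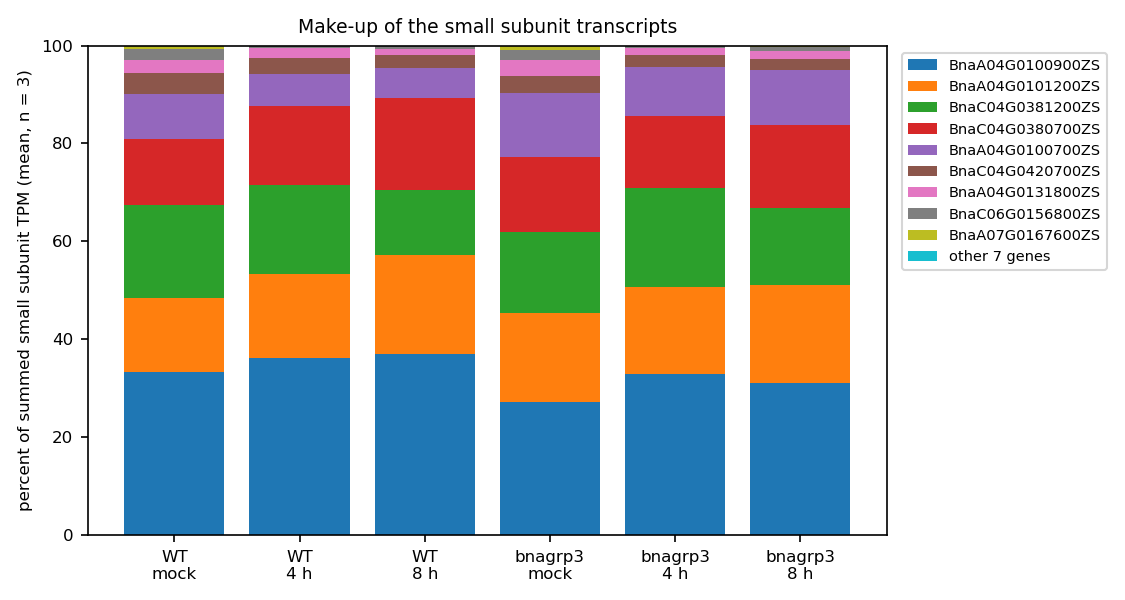
Mean percentage of the small subunit TPM contributed by each copy in the 6 groups (n = 3 libraries each). BnaA04G0100900ZS is the largest part in every group, from 27.1% in bnagrp3 mock to 37.0% in WT at 8 h, and BnaA04G0100700ZS is larger in bnagrp3 than in WT.

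Among the activase genes with a plant match, all 10 tested fell in WT at 8 h and 9 fell at 4 h; in bnagrp3 8 fell at 8 h and 6 at 4 h. The corresponding shares of all genes tested that fell, in the same order, were 17.3%, 20.5%, 18.4% and 23.5%. Bnascaffold0026G0064100ZS, the copy with the highest level, measured 3098, 4279 and 3412 TPM in WT mock, 2176, 1755 and 2044 TPM at 4 h and 1175, 1344 and 886 TPM at 8 h. The groups were fully separate, with -0.84 (SE 0.14, adjusted p = 0.000174) and -1.67 (SE 0.14, adjusted p = 2.06e-07). The bnagrp3 libraries read 2438, 2459 and 2640.4 TPM, 1498, 1449 and 1535 TPM and 996, 943 and 877 TPM, with -0.75 (SE 0.14, adjusted p = 0.000381) and -1.42 (SE 0.14, adjusted p = 1.02e-06). The unplaced model 39653 measured 1725, 1697 and 1829 TPM in WT mock, 674, 612 and 615 TPM at 4 h and 416, 471 and 311 TPM at 8 h, and 878, 886 and 1163 TPM, 461, 407 and 395 TPM and 267, 249.8 and 242 TPM in bnagrp3. Its fall at 8 h was -2.15 (SE 0.14, adjusted p = 9.48e-09) in WT and -1.93 (SE 0.14, adjusted p = 2.76e-08) in bnagrp3. BnaA03G0193800ZS had the deepest fall of the leading copies, from 1023, 1274 and 1324 TPM to 329.8, 431 and 328 TPM and 210.4, 209.7 and 189 TPM in WT. The bnagrp3 libraries read 681, 704 and 977 TPM, 209, 185 and 169.6 TPM and 131, 122 and 109.8 TPM. The changes at 8 h were -2.56 (SE 0.15, adjusted p = 4.41e-09) and -2.67 (SE 0.15, adjusted p = 2.63e-09).

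In 3 further activase copies the WT libraries of a group stood apart from each other. Model 46954 measured 2042, 1275 and 2195 TPM in WT mock, 451, 959.8 and 566 TPM at 4 h and 417, 294 and 446 TPM at 8 h, against 1915, 1921 and 2082 TPM, 789, 752 and 795 TPM and 578, 555 and 503 TPM in bnagrp3. Its WT values spread by more than the bnagrp3 values in each treatment, and it still fell in WT by 1.51 and 2.23 on the log2 scale (adjusted p = 0.000129 and 2.98e-06). Model 11790 measured 137, 269 and 259 TPM in WT mock, 20.9, 272 and 145 TPM at 4 h and 65.4, 41.1 and 71.0 TPM at 8 h, while bnagrp3 had 444, 448 and 508 TPM, 271, 270.2 and 261 TPM and 168, 171 and 152 TPM. WT 4 h replicate 2 was as high as the highest mock library, and replicate 1 was far below. Its WT change at 8 h, -1.86 (SE 0.62, adjusted p = 0.0227), was lost without WT mock replicate 2, WT mock replicate 3 or WT 8 h replicate 2 (0.0697 to 0.0775), and its bnagrp3 changes, -0.80 (SE 0.62, adjusted p = 0.307) and -1.50 (SE 0.62, adjusted p = 0.0561), did not pass although the bnagrp3 groups did not overlap. Both bnagrp3 changes passed as lower with only the groups compared (adjusted p = 0.000614 and 0.000169), and the 8 h change also under rescaling (0.0338) and with a filter of 5 TPM (0.0472). Bnascaffold0026G0064800ZS measured 327, 414 and 352 TPM, 244, 102 and 203 TPM and 132, 147 and 97.9 TPM in WT and 96.0, 91.5 and 99.6 TPM, 74.7, 53.5 and 72.0 TPM and 48.4, 46.9 and 42.0 TPM in bnagrp3. Here WT 4 h replicate 2 was the lowest at 4 h. The WT 4 h call of this copy was lost with only the groups compared (adjusted p = 0.0554), and its bnagrp3 change at 4 h, not called otherwise, passed in that fit (0.025) and under rescaling (0.0485).

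The other activase copies were below 100 TPM in every library. BnaC04G0070500ZS stood at 77.9 to 97.2 TPM in WT mock and at 28.7 to 45.4 TPM at 8 h, a fall of -1.20 (SE 0.15, adjusted p = 9.53e-06). Model 12595 stood at 65.1 to 94.3 TPM and then 21.4 to 23.0 TPM, a fall of -1.78 (SE 0.18, adjusted p = 1.3e-06). The 4 h call of model 12595 in WT, -0.50 (SE 0.18, adjusted p = 0.0322), was lost without any 1 of WT mock replicates 2 and 3 and WT 4 h replicates 1 and 3 (0.0652 to 0.162), and with only the groups compared (0.169). BnaA07G0336700ZS stood at 35.9 to 49.4 TPM in mock, 12.7 to 14.4 TPM at 4 h and 14.6 to 16.0 TPM at 8 h, and its change between 4 h and 8 h, 0.15 (SE 0.10, adjusted p = 0.368), did not pass. BnaC03G0722500ZS stayed within 0.800 to 4.00 TPM in WT, and its 4 h call, -0.85 (SE 0.25, adjusted p = 0.0111), was lost without WT mock replicate 3 (0.0551).

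A pair of genes carried the activase name through a match to the red alga Cyanidioschyzon merolae and a protein database name of CbxX. BnaC07G0101800ZS measured 6.53, 6.21 and 6.82 TPM in WT mock, 12.0, 8.96 and 9.92 TPM at 4 h and 8.43, 7.81 and 6.77 TPM at 8 h. Its 4 h libraries lay above all mock libraries, and it rose at 4 h by 0.58 (SE 0.11, adjusted p = 0.000586), where 26% of all genes rose. In bnagrp3 it measured 5.92, 5.59 and 5.53 TPM, 8.85, 7.94 and 9.16 TPM and 7.38, 5.64 and 6.67 TPM and also rose at 4 h, by 0.53 (SE 0.11, adjusted p = 0.000967), where 28.7% of all genes did. BnaA07G0067500ZS measured 6.65, 7.96 and 5.67 TPM in bnagrp3 mock, 10.8, 9.68 and 11.2 TPM at 4 h and 8.85, 8.28 and 9.05 TPM at 8 h, and rose at 4 h by 0.59 (SE 0.14, adjusted p = 0.00236). In WT its change was 0.33 (SE 0.14, adjusted p = 0.0651), which did not pass; without WT mock replicate 3 it did, as the number of the 26 genes called higher went from 1 to 2. At 8 h neither gene passed in either genotype in the fit of all groups, where 29% of all genes rose in WT and 31.3% in bnagrp3. BnaA07G0067500ZS passed as higher in bnagrp3 at 8 h with a filter of 5 TPM (adjusted p = 0.0468). It also passed there without WT 4 h replicate 2 and WT 8 h replicate 3 together (0.0403). The number of the 26 genes called higher there also went from 0 to 1 without WT mock replicate 3, WT 4 h replicate 2 or bnagrp3 mock replicate 2.

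Between 4 h and 8 h of NaCl, 13 of the 26 genes fell in WT and none rose, where 5.75% of all genes fell and 8.99% rose. In bnagrp3 8 fell and 1 rose, where 5.05% of all genes fell and 10.3% rose. Both counts include BnaC07G0101800ZS of the red algal pair, at -0.38 in WT and -0.36 in bnagrp3 (adjusted p = 0.0341 and 0.0434). This gene had risen at 4 h against mock, so it moved back toward mock. Its call was lost without any 1 of 4 libraries in WT (0.0651 to 0.119) and 12 in bnagrp3 (0.0506 to 0.182). Under median-of-ratios rescaling, higher calls over all genes went from 61.0% to 45.5% in WT and from 67.0% to 45.6% in bnagrp3. BnaC04G0381200ZS fell by 1.07 in WT (SE 0.095, adjusted p = 1.78e-05) and by 0.71 in bnagrp3 (SE 0.095, adjusted p = 0.000341) on the log2 scale. Bnascaffold0026G0064100ZS fell by 0.83 and 0.67 (adjusted p = 0.00152 and 0.00538). BnaA04G0131800ZS fell by 1.15 in WT (adjusted p = 6.28e-05), and its change in bnagrp3 was -0.23 (SE 0.12, adjusted p = 0.243). The riser was BnaC06G0156800ZS in bnagrp3, at 0.65 (SE 0.18, adjusted p = 0.0277), a call lost under rescaling (0.53, adjusted p = 0.0619) and without any 1 of bnagrp3 4 h replicates 1 to 3 or bnagrp3 8 h replicates 1 and 2 (0.0566 to 0.108). Without WT mock replicate 1, WT mock replicate 2 or WT 4 h replicate 1, 2 genes rose. The WT calls of BnaC04G0381200ZS (adjusted p = 0.0547) and Bnascaffold0026G0064100ZS (0.0907) were lost with only the groups compared. The bnagrp3 call of BnaC04G0381200ZS was lost in that fit (0.096) and without the filter (0.101). When only the groups compared were fitted, 3 genes fell in WT in place of 13, and without the filter on low values 4 fell in bnagrp3 in place of 8.

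bnagrp3 and WT were then compared within each treatment. Among the 14 small subunit genes 1 was lower and 2 higher in bnagrp3 mock, 2 lower and 1 higher at 4 h, and 1 lower and 4 higher at 8 h. Over all genes 12.4% were lower and 9.1% higher in mock, 13.7% and 9.89% at 4 h, and 12% and 11.4% at 8 h. BnaA04G0100700ZS was higher in bnagrp3 in each treatment: the 3 mutant libraries lay above the 3 WT libraries, with 0.54 (SE 0.13, adjusted p = 0.00919) in mock, 0.56 (SE 0.13, adjusted p = 0.00654) at 4 h and 1.07 (SE 0.13, adjusted p = 3.65e-05) at 8 h. Its mock call was lost with only the groups compared (adjusted p = 0.124), and its mock and 4 h calls were lost without the filter (0.102 and 0.0808). The leading copy BnaA04G0100900ZS did not pass, with -0.27 (SE 0.096, adjusted p = 0.0624) in mock (95% interval -0.47 to -0.06) and -0.06 (SE 0.096, adjusted p = 0.695) at 8 h (95% interval -0.27 to 0.14). In mock it passed as lower with a filter of 5 TPM (adjusted p = 0.0394).

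Other small subunit copies differed in single treatments. BnaC04G0381200ZS was higher in bnagrp3 at 8 h (0.43, SE 0.095, adjusted p = 0.00415). BnaA04G0131800ZS was lower at 4 h (-0.43, SE 0.12, adjusted p = 0.0212) and higher at 8 h (0.49, SE 0.12, adjusted p = 0.00953). The 4 h call of BnaA04G0131800ZS was lost without WT 4 h replicate 1 or 3 or bnagrp3 4 h replicate 1 or 2 (0.0572 to 0.0655), and its 8 h call without bnagrp3 8 h replicate 1 (0.0514). The 8 h calls of BnaC04G0381200ZS and BnaA04G0131800ZS were also lost with only the groups compared (adjusted p = 0.0738 and 0.0717), the former also without the filter (0.306). In mock BnaA04G0131800ZS passed as higher under rescaling (0.0302) and with a filter of 5 TPM (0.043). BnaC04G0420700ZS was lower at 4 h (-0.58, SE 0.14, adjusted p = 0.00693). BnaA07G0167600ZS was higher at 8 h (0.93, SE 0.26, adjusted p = 0.0167), but not without WT 8 h replicate 1 or 3 or bnagrp3 8 h replicate 1 or 2 (0.0536 to 0.0705). BnaA04G0101200ZS was higher in mock (0.30, SE 0.085, adjusted p = 0.0204), but not without WT mock replicate 1 or bnagrp3 mock replicate 2 or 3 (0.0669 to 0.0929), without the filter (0.526) or with only the groups compared (0.346). BnaA02G0163400ZS was lower in mock (-1.60, SE 0.42, adjusted p = 0.0145), but not without WT mock replicate 3 or bnagrp3 mock replicate 2 (0.0565 to 0.0745) or with a pseudocount of 0.1 TPM (0.0806). Its 8 h call was lost without any 1 of 10 libraries (0.0521 to 0.187), without the filter (0.0633) and under rescaling (0.0569).

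Most activase copies were lower in the mutant. Of the 10 tested with a plant match, 7 were lower and none higher in mock, 6 lower and none higher at 4 h, and 5 lower and 1 higher at 8 h, where 12.4%, 13.7% and 12% of all genes were lower. The deepest difference was that of Bnascaffold0026G0064800ZS, whose bnagrp3 mock libraries held 91.5 to 99.6 TPM and whose WT mock libraries held 327 to 414 TPM, a change of -1.91 (SE 0.25, adjusted p = 7.38e-05). At 4 h and 8 h it was -1.37 (SE 0.25, adjusted p = 0.0011) and -1.42 (SE 0.25, adjusted p = 0.000762). Model 12595 stood at 65.1, 94.3 and 76.9 TPM in WT mock and 20.8, 21.6 and 28.7 TPM in bnagrp3 mock, with -1.69 (SE 0.18, adjusted p = 1.08e-05), and was lower at 4 h and 8 h too (-1.58 and -1.19). All 3 groups of bnagrp3 lay under those of WT for model 39653 (-0.85, SE 0.14, adjusted p = 0.000405, in mock and -0.64, SE 0.14, adjusted p = 0.00319, at 8 h). BnaA03G0193800ZS was lower in bnagrp3, with log2 differences of -0.63, -0.94 and -0.74 in mock, at 4 h and at 8 h (adjusted p = 0.00778, 0.000373 and 0.0022), and so was BnaC04G0070500ZS, with -0.94, -0.67 and -0.69 (adjusted p = 0.000375, 0.00435 and 0.00324). The calls of BnaA03G0193800ZS in mock (adjusted p = 0.0731) and of Bnascaffold0026G0064800ZS at 4 h (adjusted p = 0.0639) were lost with only the groups compared.

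The leading activase copy, Bnascaffold0026G0064100ZS, was lower in bnagrp3 mock (-0.50, SE 0.14, adjusted p = 0.0187), a call lost without WT mock replicate 2 or bnagrp3 mock replicate 1 or 2 (0.0563 to 0.0815). At 4 h (-0.41, SE 0.14, adjusted p = 0.0478) the call was lost without any 1 of 13 libraries (0.0557 to 0.167), and at 8 h the difference was -0.25 (SE 0.14, adjusted p = 0.224). Its mock and 4 h calls were lost as well with only the groups compared (adjusted p = 0.0873 and 0.0806), and without the filter (0.0677 and 0.134). The 4 h call was also lost with a pseudocount of 0.1 TPM (0.0566) and under rescaling (0.0608). BnaC03G0722500ZS was lower in mock (-0.98, SE 0.25, adjusted p = 0.0108), but not without WT mock replicate 3 (0.0527) or with only the groups compared (0.102). BnaA07G0336700ZS was the copy higher at 8 h (0.32, SE 0.10, adjusted p = 0.0335), but not without WT 8 h replicate 1 or 2 or bnagrp3 8 h replicate 1 or 2 (0.0861 to 0.12). With only the groups compared in the fit, 5 of the 26 genes were lower and 1 higher in mock, in place of 8 and 2. Models 46954 and 11790 passed in no treatment in the fit of all groups. In the fit of only the groups compared, model 11790 passed as higher in bnagrp3 mock (adjusted p = 0.0423) and at 8 h (0.00755). For model 11790 the differences were 1.13 (SE 0.62, adjusted p = 0.22) in mock, 1.49 (SE 0.62, adjusted p = 0.096) at 4 h and 1.49 (SE 0.62, adjusted p = 0.101) at 8 h, with all 3 bnagrp3 mock libraries, at 444 to 508 TPM, above the WT mock libraries, at 137 to 269 TPM.

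**Figure D4:**
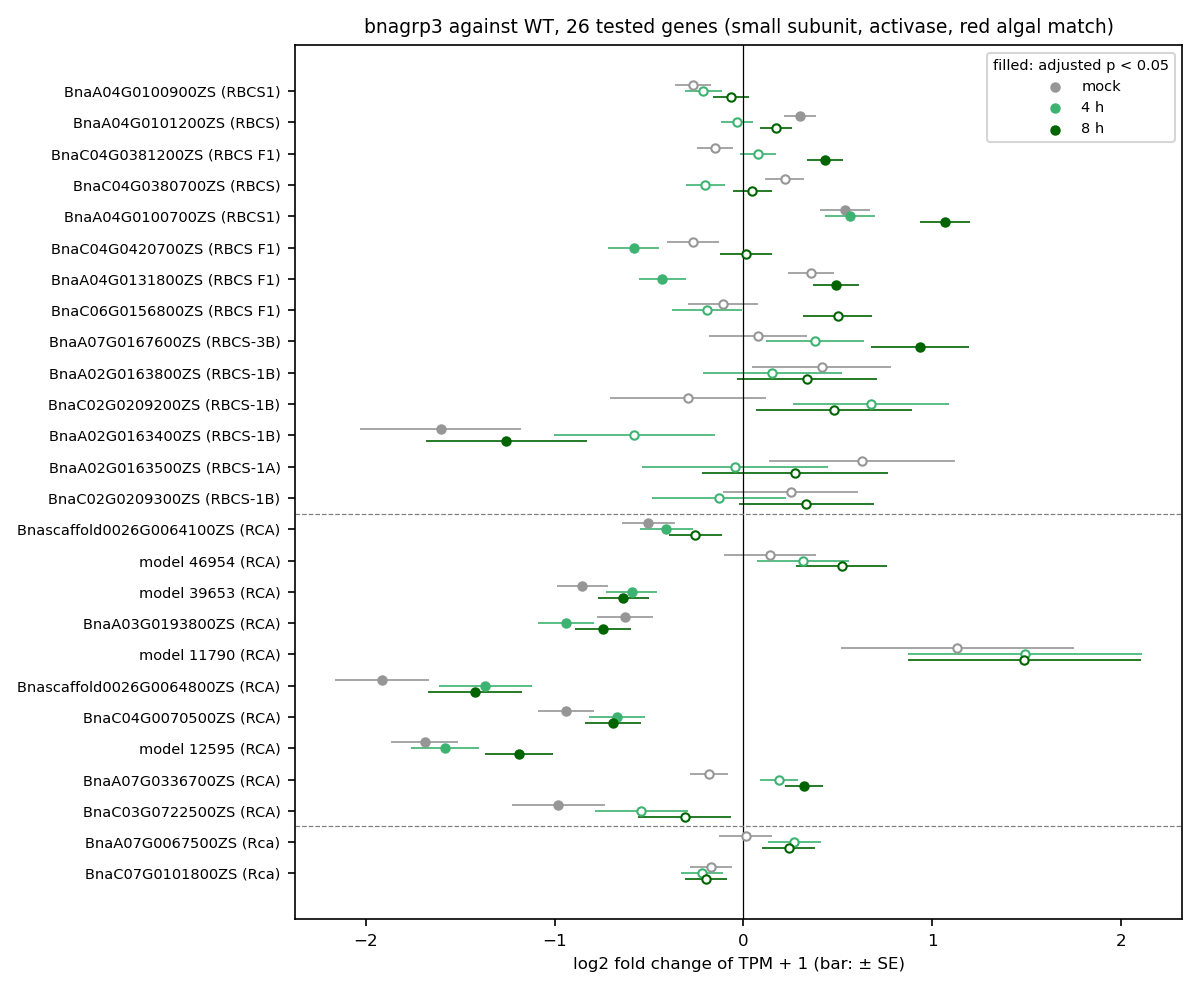
Log2 fold change of TPM + 1 for bnagrp3 against WT in mock, at 4 h and at 8 h of NaCl, for the 26 tested genes, with bars of ± SE and filled points for an adjusted p under 0.05 (limma). Points of most activase copies lie left of 0, down to -1.91 for Bnascaffold0026G0064800ZS in mock, while BnaA04G0100700ZS lies right of 0 in all 3 treatments.

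These differences stand beside the differences among WT libraries in mutant-type transcripts. In both NaCl groups of WT, model 46954 and model 11790 were higher where that level was higher, and Bnascaffold0026G0064100ZS, model 39653 and Bnascaffold0026G0064800ZS were lower. At 4 h, where the level was 0, 0.233 and 0.67, model 11790 measured 20.9, 145 and 272 TPM, and Bnascaffold0026G0064800ZS 244, 203 and 102 TPM. At 8 h, where it was 0, 0.168 and 0.369, they measured 41.1, 65.4 and 71.0 TPM and 147, 132 and 97.9 TPM. In each case the WT library with the highest level was the nearest to bnagrp3. The WT mock libraries lay close together in this level, at 0.214, 0.231 and 0.254. In that order model 46954 measured 2195, 2042 and 1275 TPM, opposite to its order with NaCl, and model 11790 measured 259, 137 and 269 TPM. Bnascaffold0026G0064100ZS measured 3412, 3098 and 4279 TPM and Bnascaffold0026G0064800ZS 352, 327 and 414 TPM, both highest in the mock library of highest level. Model 39653, at 1829, 1725 and 1697 TPM, was the one of these 5 copies ordered in mock as with NaCl. Of the 10 tested activase genes, 5 were ordered by this level in the same direction at both times, as were 4 of 14 small subunit genes and 18.9% of all 57923 genes; this is a description over 3 libraries a group. Bnascaffold0750G0000100ZS, not tested, was listed at 34.5 TPM in WT 4 h replicate 1 and 18.2 TPM in WT 8 h replicate 2, the libraries at level 0, at 0.04 TPM in WT mock replicate 3, and at 0 in the other 15 libraries.

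Leaving out WT 4 h replicate 2 and WT 8 h replicate 3, the WT libraries of highest level in their groups, was among the alternatives. Both were picked from these data, and for the genes that newly passed they were the WT libraries nearest to bnagrp3. Removing them widens those genotype differences by construction, so the new calls are no separate evidence. The genes higher in bnagrp3 at 4 h then went from 1 to 4 of 26, as they did without WT 4 h replicate 2 alone: model 11790 (2.25, adjusted p = 0.00841), model 46954 (0.62, adjusted p = 0.0342) and BnaA07G0067500ZS (0.41, adjusted p = 0.0463) joined BnaA04G0100700ZS. At 8 h model 11790 (1.64, adjusted p = 0.0474) and model 46954 (0.64, adjusted p = 0.0345) passed as higher and Bnascaffold0026G0064100ZS (-0.42, adjusted p = 0.0155) as lower. The part of these WT differences in the genotype comparison of the other copies was not tested.

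**Figure D5:**
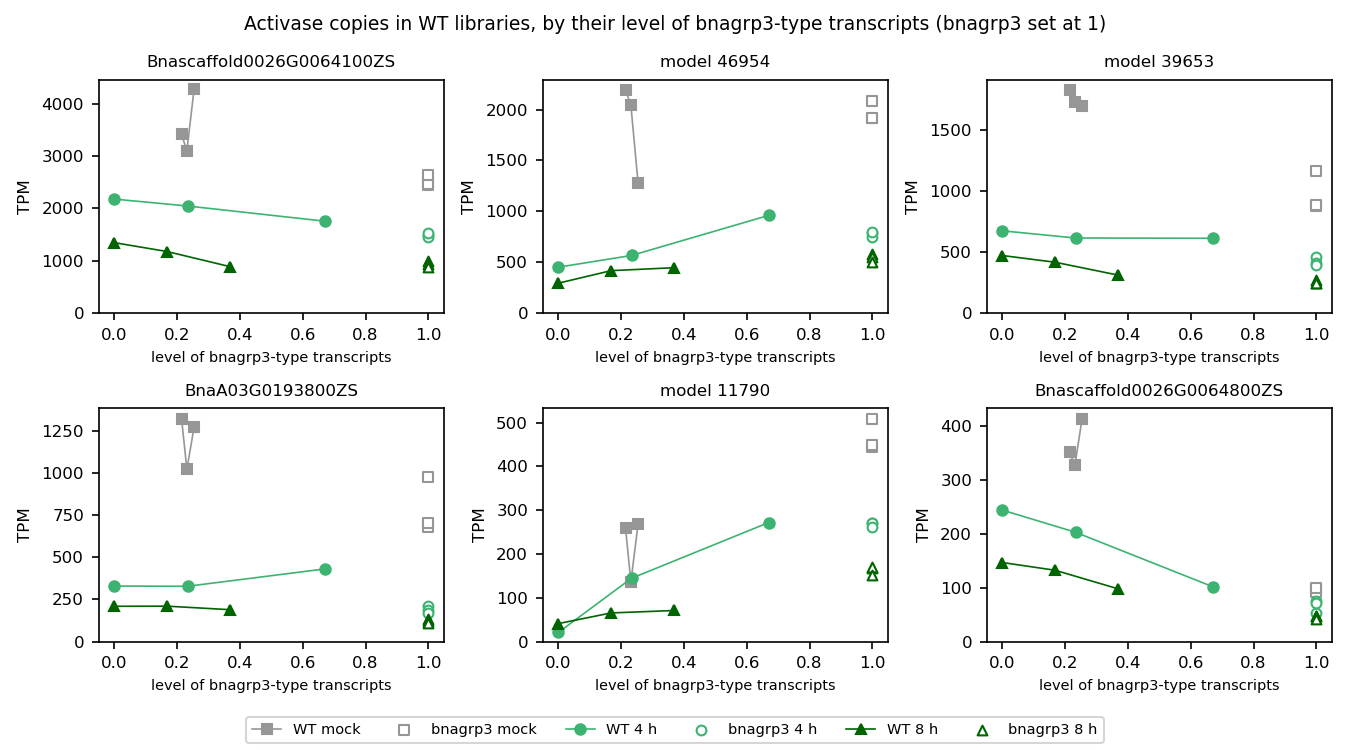
TPM of the 6 activase copies with the highest mean level, plotted against the level of bnagrp3-type transcripts in each WT library (filled symbols, joined by lines within a treatment), with the bnagrp3 libraries set at 1 (open symbols). In the NaCl groups model 46954 and model 11790 are higher, and Bnascaffold0026G0064100ZS, model 39653 and Bnascaffold0026G0064800ZS lower, in the WT libraries of higher level.

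The test of the difference between genotypes in the response to NaCl called 1 of the 26 genes at each time. At 4 h BnaA04G0131800ZS fell further in bnagrp3 than in WT, with a difference of -0.79 (SE 0.17, adjusted p = 0.0304), where 1.32% of all genes had a lower and 1.14% a higher response. At 8 h BnaC04G0381200ZS fell less in bnagrp3 than in WT, with a difference of 0.58 (SE 0.14, adjusted p = 0.0483), where 0.782% of all genes had a higher and 0.599% a lower response. The 4 h call was lost without any 1 of 8 libraries, with adjusted p between 0.0553 and 0.0772, and the 8 h call without any 1 of 15 libraries, with adjusted p between 0.0558 and 0.131. The 8 h call was also lost with only the groups compared (adjusted p = 0.108), with a pseudocount of 0.1 TPM (0.107), without the filter (0.597) and without WT 4 h replicate 2 and WT 8 h replicate 3 together (0.0605), and the 4 h call without the filter (0.0624). For the leading copies the intervals of the difference at 8 h were -0.09 to 0.49 for BnaA04G0100900ZS and -0.17 to 0.68 for Bnascaffold0026G0064100ZS on the log2 scale.

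Genes of the pathways around Rubisco were counted from lists by enzyme name. Of 74 tested genes for the other enzymes of the Calvin-Benson cycle, which turns fixed CO2 into sugar phosphates, 48 fell and 7 rose at 4 h and 50 fell and 9 rose at 8 h in WT. In bnagrp3 56 fell and 9 rose at 4 h, and 51 fell and 11 rose at 8 h. The share that fell at 4 h and 8 h was 64.9% and 67.6% in WT and 75.7% and 68.9% in bnagrp3, beside 20.5%, 17.3%, 23.5% and 18.4% of all genes tested. The share that rose was 9.46% and 12.2% in WT and 12.2% and 14.9% in bnagrp3, beside 26%, 29%, 28.7% and 31.3%. The median log2 fold changes were -0.67, -0.85, -0.77 and -0.79 in that order. BnaC05G0098400ZS, a plastid glyceraldehyde-3-phosphate dehydrogenase of the reducing step, went from 1060 ± 174 TPM in WT mock to 248 ± 17.8 TPM at 4 h, by -2.08 (SE 0.13, adjusted p = 9.16e-09). BnaA09G0394800ZS, for phosphoribulokinase, which regenerates the CO2 acceptor, went from 307 ± 6.57 to 158 ± 7.39 and 123 ± 10.1 TPM. BnaA09G0515100ZS, for sedoheptulose-1,7-bisphosphatase, went from 276 ± 23.7 to 126 ± 19.0 TPM at 8 h, by -1.13 (SE 0.10, adjusted p = 5.51e-07). BnaA03G0227600ZS, for CP12, the small protein that binds these dehydrogenase and kinase enzymes in an inactive complex in the dark, rose at 8 h from 441 ± 10.1 to 591 ± 10.7 TPM (0.42, SE 0.062, adjusted p = 5.36e-05).

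Genes for Rubisco assembly and modification, 57 tested, included 28 that fell and 6 that rose at 4 h and 28 and 8 at 8 h in WT, with 31 and 7, then 29 and 7 in bnagrp3. At 4 h and 8 h 49.1% and 49.1% in WT and 54.4% and 50.9% in bnagrp3 fell, where 20.5%, 17.3%, 23.5% and 18.4% of all genes did, and 10.5% and 14.0% in WT and 12.3% and 12.3% in bnagrp3 rose, where 26%, 29%, 28.7% and 31.3% did. The medians were -0.46 and -0.45 in WT and -0.51 and -0.47 in bnagrp3. The plastid chaperonin copy BnaA05G0153800ZS fell from 60.3 ± 23.7 to 7.96 ± 0.731 TPM at 8 h (-2.70, SE 0.21, adjusted p = 9.5e-08), and BnaC01G0291200ZS, for the assembly factor BSD2, from 198 ± 33.5 to 109 ± 14.5 TPM. BnaA09G0238700ZS, for the chaperone RBCX, fell at 4 h and did not pass at 8 h (-0.05, SE 0.11, adjusted p = 0.734).

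In photorespiration, the salvage route for the product of Rubisco's reaction with oxygen, 35 of 56 tested genes fell and 7 rose at 4 h, and 33 fell and 6 rose at 8 h in WT. In bnagrp3 27 fell and 10 rose, then 30 fell and 11 rose. Of this list 62.5% and 58.9% in WT and 48.2% and 53.6% in bnagrp3 fell at 4 h and 8 h, against 20.5%, 17.3%, 23.5% and 18.4% of all genes, and 12.5% and 10.7% in WT and 17.9% and 19.6% in bnagrp3 rose, against 26%, 29%, 28.7% and 31.3%. BnaA04G0092800ZS, for the 2-phosphoglycolate phosphatase that starts the route, fell from 196 ± 17.5 TPM to 140 ± 6.09 and 74.8 ± 6.92 TPM. Model 15060, for glycolate oxidase, fell from 521 ± 20.4 to 223 ± 47.6 TPM at 8 h. BnaC08G0212500ZS, for the T protein of mitochondrial glycine decarboxylase, moved the other way, from 123 ± 8.84 to 327 ± 18.4 and 430 ± 70.2 TPM (1.79, SE 0.094, adjusted p = 1.4e-09 at 8 h), while its H protein copy BnaC05G0338900ZS fell (-0.50, SE 0.11, adjusted p = 0.0016).

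The mock columns are headed 0 h and the sample labels give no hour of harvest, so no mock is known to match the NaCl libraries in time of day. NaCl and time of day therefore cannot be told apart for genes with a daily course. Of 42 clock genes tested, 11 rose and 12 fell at 4 h and 20 rose and 9 fell at 8 h in WT, and 10 and 9, then 16 and 8 in bnagrp3. The shares that rose at 4 h and 8 h were 26.2% and 47.6% in WT and 23.8% and 38.1% in bnagrp3, where 26%, 29%, 28.7% and 31.3% of all genes rose, and the shares that fell were 28.6% and 21.4% in WT and 21.4% and 19.0% in bnagrp3, where 20.5%, 17.3%, 23.5% and 18.4% fell. At 4 h in WT the share that rose was close to that of all genes. At 4 h in bnagrp3 the shares that rose and fell, 23.8% and 21.4%, lay under those of all genes, 28.7% and 23.5%. At 8 h in both genotypes the share that fell was near that of all genes. BnaA10G0008600ZS, for the morning factor LHY, stood at 15.4 ± 0.878 TPM in WT mock, 6.70 ± 2.23 TPM at 4 h and 3.04 ± 0.760 TPM at 8 h. BnaC04G0011300ZS, for its partner CCA1, stood at 28.2 ± 1.41, 26.1 ± 5.03 and 10.3 ± 0.461 TPM. BnaC07G0381000ZS, for the evening factor TOC1, went from 16.3 ± 1.13 to 33.1 ± 1.22 TPM at 8 h, and BnaC05G0198400ZS, for GIGANTEA, from 12.5 ± 0.731 to 33.9 ± 1.98 TPM. These copies are a choice from the 42 tested genes, of which 20 rose and 9 fell at 8 h in WT. Their directions do not stand for those of the other clock genes. The part of the clock genes in the falls of the Rubisco genes was not tested.

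Markers of leaf cell types moved as well. The summed level of the 62 LHCB genes was 75700 to 78300 TPM in WT mock, 45400 to 50300 TPM at 4 h and 42100 to 45800 TPM at 8 h, and in bnagrp3 88500 to 92700, 50100 to 53300 and 47800 to 52400 TPM. The 35 guard cell marker genes, 6 of them at 0 in all libraries, summed to 164 to 182 TPM in WT mock and to 198 to 214 and 193 to 203 TPM with NaCl, with 155 to 183, 221 to 230 and 208 to 210 TPM in bnagrp3. The 10 phloem marker genes, none at 0, summed to 166 to 179, 222 to 239 and 216 to 225 TPM in WT and to 163 to 186, 232 to 243 and 217 to 235 TPM in bnagrp3. Both of these sums were higher with NaCl than in mock, but neither had a higher median at 8 h than at 4 h. Single genes were mixed. Among 26 guard cell genes tested, 5 rose and 3 fell at 4 h and 5 and 4 at 8 h in WT. In bnagrp3 it was 9 and 5, then 8 and 5. Among 10 phloem genes it was 2 and 3, then 6 and 1 in WT, and 5 and 1, then 6 and 1 in bnagrp3. Over all genes, in that order, 26%, 29%, 28.7% and 31.3% rose and 20.5%, 17.3%, 23.5% and 18.4% fell. The part of cell makeup in these results was not tested.

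Among 15634 genes with a mean of at least 10 TPM, those whose 6 group means followed the small subunit sum most closely, by root mean square difference on a centred log2 scale, were counted from the smallest. They were BnaC08G0082600ZS, for the plastid dehydrogenase subunit GAPB, at 0.036, BnaC01G0308800ZS, for a glycine cleavage H protein, at 0.0456, BnaC08G0121200ZS, for a photosystem I subunit, at 0.0604, BnaC02G0204200ZS, for a glutamine synthetase, at 0.0724, and BnaA05G0178600ZS, for an alpha tubulin, at 0.0732. GAPB stood at 410, 212 and 135 TPM in WT and 421, 188 and 147 TPM in bnagrp3, in the order mock, 4 h and 8 h. The activase sum had no match as close. Its nearest were BnaC03G0481900ZS, for a xyloglucan endotransglucosylase/hydrolase, at 0.118, BnaC06G0436200ZS, for a ribosomal protein L30, at 0.13, BnaC03G0250100ZS, for a defensin-like protein, at 0.138, BnaA10G0182000ZS, for a large subunit of ADP-glucose pyrophosphorylase, at 0.142, and BnaA07G0376800ZS, for a plastid ribosomal protein, at 0.145.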

How the data were processed

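The series holds RNA-seq of 18 libraries, 3 in each of 6 groups, grouped by the sample titles. Per the submitters' processing notes, fastp, HISAT2 and featureCounts were used. Not given in the sources used here are their versions, the genome build, the annotation, the strand setting and the handling of reads shared by copies. The only values are TPM per gene and library, as deposited by the authors, so read depth is unknown and precision was judged from the spread between libraries.

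Genes with at least 1 TPM in at least 3 libraries were kept, 57923 of 108207. Log2(TPM + 1) was fitted with limma 3.58.1 in R 4.3.3, with 1 mean per group over all 18 libraries, an intensity trend and no covariate. Tests were two-sided, p-values were adjusted over the 57923 genes by Benjamini-Hochberg, and a call is an adjusted p under 0.05. Fold changes on this scale understate those of low genes. There were 11 comparisons. The procedure was tested on simulated data.

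The members and all lists were chosen with earlier results of these data known. Library values are printed for up to 8 small subunit and 6 activase genes of highest mean TPM, and for genes called against the common direction. For an enzyme named from the other lists, the copy of highest mean TPM is given. Only some enzymes of these lists are named, so they do not stand for the rest. In the lists, 2 name patterns were narrowed once the table was seen, because they had matched unrelated products. Alternatives were a pseudocount of 0.1 TPM, a filter of 5 TPM or none, rescaling by median of ratios, only the groups compared, a replicate block, leaving out each library, and leaving out a pair of WT libraries. Protein, transcript and promoter sequences were not used here. Python 3.11.15 and matplotlib 3.10.9 drew the figures.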

Additional observations from a re-analysis of the deposited data

Results flagged for a closer look

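The response to NaCl differed between the genotypes, by a test of the difference itself (limma, adjusted over all genes), for 2 of the 26 genes. For BnaA04G0131800ZS, a small subunit gene matched to F1, the 4 h response of bnagrp3 minus that of WT was -0.79 on the log2 scale. It passed in 10 of the 18 fits that left out 1 library (adjusted p from 0.0209 to 0.0772) and in 6 of 7 other settings (0.0217 to 0.0624), and its direction was the same in all of them. For BnaC04G0381200ZS, the copy of F1 type with the highest level, the 8 h response differed by 0.58. It passed in 3 of 18 fits that left out 1 library (0.0274 to 0.131) and in 2 of 7 other settings (0.0293 to 0.597), again with the same direction. The cause of either difference was not tested.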

How the results depend on the processing

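Over the counts of called genes, 743 values under the alternatives were within 1.5 times the reported one and 82 were not. Over single genes, 6801 kept their side of the threshold, 99 passed newly and 206 no longer passed. No change that passed in either fit turned direction, while a turn where neither fit passed was counted as keeping its side. A fit of only the groups compared called 1848 genes between 4 h and 8 h in WT (3 Rubisco genes lower), 6371 between genotypes at 4 h and 712 for the 4 h difference of response, against 8541 (13 lower), 13671 and 1426. In mock it called 5 Rubisco genes lower and 1 higher in bnagrp3, against 8 and 2. Without the filter 4 fell between 4 h and 8 h in bnagrp3 (8 with it), and 0 were higher in bnagrp3 in mock, 0 at 4 h, and 0 called for the 4 h and 0 for the 8 h difference of response. Rescaling gave 0 genes higher at 8 h than at 4 h in bnagrp3 (1 without it). The filter of 5 TPM gave 1 gene higher at 8 h in bnagrp3 (0 otherwise). Leaving out both WT libraries of highest mutant-type level also gave 1 there, 4 higher in bnagrp3 at 4 h (1 otherwise), 2 lower (1 otherwise) and 0 higher for the 4 h and 8 h differences of response, with 5205, 2986 and 1541 genes in all between 4 h and 8 h in WT and for the 4 h and 8 h differences (8541, 1426 and 800 otherwise). In that setting all genes called between genotypes at 4 h went from 13671 to 17385. A pseudocount of 0.1 TPM and the fit of only the groups compared gave 0 for the 8 h difference.

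Leaving out 1 library gave 1 to 2 Rubisco genes higher in WT at 4 h, 0 to 1 in bnagrp3 at 8 h and 0 to 2 between 4 h and 8 h in bnagrp3 (5466 to 9864 genes in all). For bnagrp3 against WT it gave 1 to 3 higher in mock, 1 to 4 at 4 h and 2 to 6 at 8 h. Over all genes it gave 9207 to 14011, 9349 to 16933 and 9503 to 14982 called in either direction. For the difference of response it gave 0 to 1 at 4 h (651 to 2545 genes in all, the highest without WT 4 h replicate 2) and 0 to 1 at 8 h (458 to 1163). For these counts the cause was not tested, apart from the fewer samples or more genes that a setting brings by construction.

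With the replicate number as a block, 0 Rubisco genes passed for the difference of the 8 h response (1 without it), and the other counts stayed within 1.5 times. The numbers do not pair the libraries: over 45 same-numbered pairs the correlation of deviations ran from -0.431 to 0.066, with 0 pairs over 0.1. TPM keeps no depth, so what depth limits for the RBCS-1A and RBCS-1B copies could not be judged.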
